A study of Mus musculus with 6 samples.

Results

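The 10 genes described here mark the basal layer of the mammary epithelium, whose cells are called myoepithelial because they contract. They are the transcription factors *Trp63* and *Snai2*, the actins *Acta2* and *Actg2*, the myosin heavy chain *Myh11*, the thin filament genes *Cnn1*, *Tagln* and *Lmod1*, the kinase *Mylk* and the receptor *Oxtr*. They were chosen by symbol from the deposited table, where each of the 10 had 1 row with its symbol among 61880 rows in all. Rows that StringTie, the assembler used by the authors, gave the same locus number were also summed, for a total of 53912 loci. The locus of 8 members had a single row, and the loci of *Tagln* and *Oxtr* had several.

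The RNA came from epithelial cell isolates of the inguinal mammary glands of female mice on the FVB/NJ background during puberty, at 6 to 8 weeks of age. One group was *fat-1* transgenic and carried a roundworm *n*-3 desaturase that turns *n*-6 PUFA into *n*-3 PUFA throughout the body, and the other was wild type (WT). Both had been kept lifelong on their parental modified AIN93G diet with 10% fat by weight from safflower oil, an *n*-6 PUFA source, which supplied 22% of energy. Each genotype had 3 samples, each a pool of glands from several mice and called a pool here, and the oestrous stage of the mice was not determined. The transgene was not analysed here. Counts summed to between 204539059 and 232148824 per sample.

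Myoepithelial cells surround the luminal cells of ducts and alveoli. After birth of the young, oxytocin binds its receptor on these cells, calcium rises, myosin light chain kinase activates myosin, and the pull of myosin on actin ejects milk. The same contractile proteins are made by smooth muscle cells of vessels and by pericytes, so their RNA in a bulk sample can come from several cell types. In bulk RNA, fewer cells of a type and less RNA per cell cannot be told apart.

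None of the 10 genes showed a difference between *fat-1* and WT pools larger than the spread within the genotypes, and that spread was wide. In all 10 genes the values of the genotypes overlapped. The highest sample exceeded the lowest by between 1.61-fold (*Snai2*) and 11.05-fold (*Oxtr*). For 9 of the 10 genes the lowest values were those of *fat-1* pool 2 and WT pool 3. The share of all loci with this order was not counted. For *Oxtr* these values are of its summed rows, while the row with its symbol was highest in WT pool 3. No member passed the adjusted or the unadjusted threshold of 0.05 in edgeR's quasi-likelihood test, against a background of 0% and 1.14% of the 24061 locus sums tested and 0% and 2.21% of the 30683 rows tested. Nor was any member called after adjustment by edgeR's exact test, which called 0.104% of rows and 0.0249% of locus sums, or by DESeq2, which called 0.305% and 0.0333%. Levels are given as CPM, counts scaled to a TMM-normalized total of 1000000 per sample. They are for the summed rows of a locus, except for *Tagln*, whose locus holds other named genes and for which the row with its symbol is given.

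**Figure D1:**
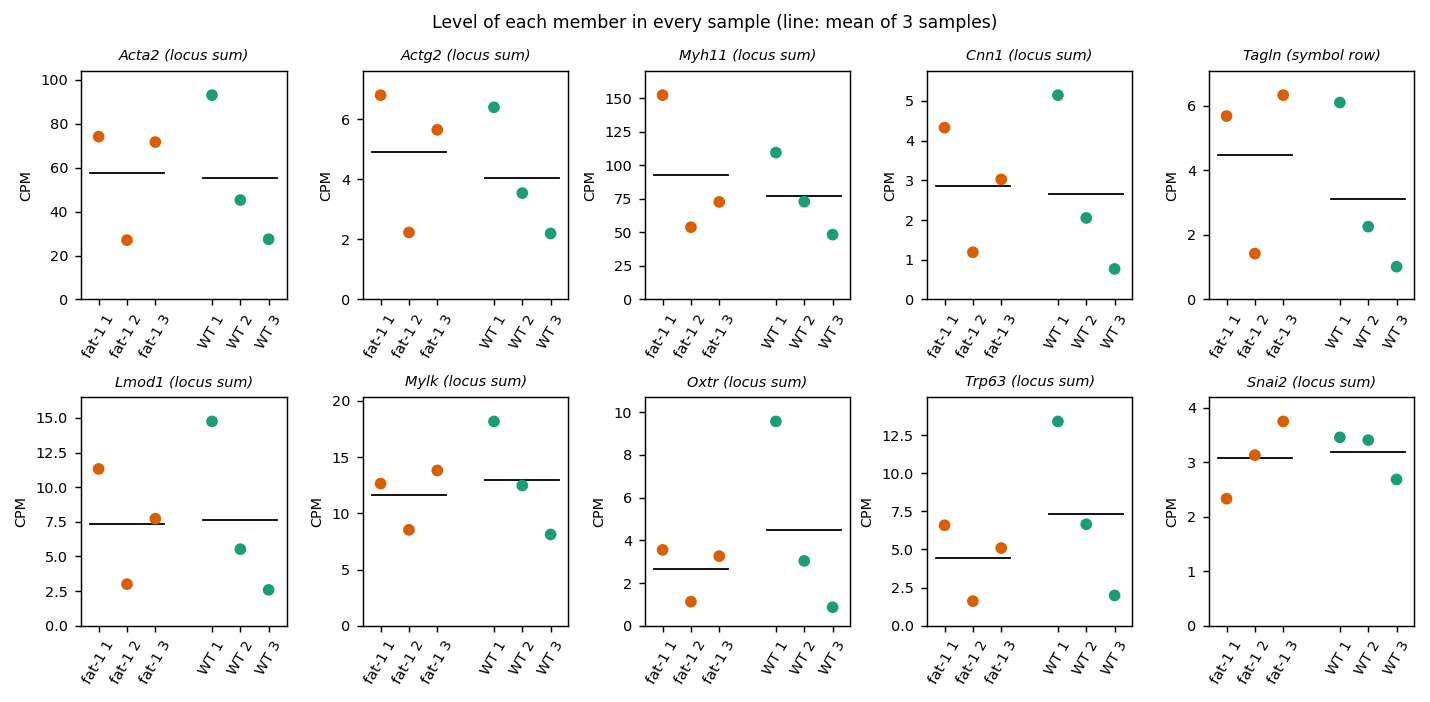
CPM of each of the 10 genes in the 3 *fat-1* pools (orange) and the 3 WT pools (green), with a line at the mean of each genotype and every axis starting at 0. In 9 of the 10 panels *fat-1* pool 2 and WT pool 3 are the lowest points, and in all 10 the genotypes overlap.

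*Acta2* encodes smooth muscle alpha actin, the thin filament protein by which myoepithelial cells are usually recognized (chromosome 19, 34241090 to 34255590, minus strand, GRCm38). It had 74.1, 27.0 and 71.6 CPM in *fat-1* pools 1 to 3 and 93.0, 45.2 and 27.4 CPM in WT pools 1 to 3. High and low pools were found in each genotype, and the lowest *fat-1* and WT pools were nearly level. The means were 57.6 ± 26.5 CPM (SD, *n* = 3) in *fat-1* and 55.2 ± 33.9 CPM in WT. The log2 fold change of *fat-1* over WT was 0.06 (standard error 0.54), and its 95% interval, from 0.420-fold to 2.59-fold, leaves room for a difference of either sign. The exact permutation *p*-value was 1.00 (two-sided).

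*Actg2* encodes smooth muscle gamma actin, the actin of enteric and other visceral smooth muscle (chromosome 6, 83512905 to 83536265, minus strand). Its CPM were 6.79, 2.23 and 5.64 in the *fat-1* pools and 6.39, 3.54 and 2.19 in the WT pools, and the log2 fold change was 0.27 (standard error 0.52). Both actins kept nearly the same proportion in every sample. The counts of *Actg2* were 9.17%, 8.26% and 7.88% of those of *Acta2* in the *fat-1* pools and 6.87%, 7.82% and 8.01% in the WT pools, although *Actg2* itself differed 3.10-fold between the highest and the lowest sample. The proportion was 8.43% ± 0.665 in *fat-1* and 7.57% ± 0.607 in WT, with a two-sided exact permutation *p*-value of 0.2, where 3 against 3 samples cannot give less than 0.1. No stretch of 100 bases, the read length, in an annotated transcript of either actin occurred in a transcript of another gene.

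Smooth muscle genes are known targets of serum response factor, which binds a DNA motif called the CArG box. RefSeq promoters (GRCm38.p6, 250 bases before to 50 after the start) were at hand for 5 of the 10 genes, and each was searched for the CArG box, a motif that reads the same on both strands. None of the 5 held an exact CArG box, which 1.63% of 32851 promoters hold. Those of *Acta2* and *Lmod1* held 2 stretches each that differ from it by at most 1 letter, and those of *Cnn1*, *Mylk* and *Oxtr* held none. A stretch of this kind occurs in 21.1% of all promoters. These 2 sequences are shown because they hold the matches, which are in capitals. A match of letters is not a binding site, and no binding was measured. The promoter of *Acta2* lies at chr19:34255324-34255623 on the minus strand, with the first letters of its matches 84 and 34 bases before the start. That of *Lmod1* lies at chr1:135324563-135324862 on the plus strand, with matches 189 and 164 bases before it. The *Mylk* promoter searched lies at chr16:34784700-34784999 on the plus strand, inside the annotated gene. The annotated beginning of *Mylk* at 34745210 was not searched.
Acta2: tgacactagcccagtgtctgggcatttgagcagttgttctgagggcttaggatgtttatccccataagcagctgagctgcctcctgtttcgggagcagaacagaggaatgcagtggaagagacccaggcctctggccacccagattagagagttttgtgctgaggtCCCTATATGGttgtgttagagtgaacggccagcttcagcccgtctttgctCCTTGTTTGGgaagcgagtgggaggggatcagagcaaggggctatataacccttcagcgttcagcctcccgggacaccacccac
Lmod1: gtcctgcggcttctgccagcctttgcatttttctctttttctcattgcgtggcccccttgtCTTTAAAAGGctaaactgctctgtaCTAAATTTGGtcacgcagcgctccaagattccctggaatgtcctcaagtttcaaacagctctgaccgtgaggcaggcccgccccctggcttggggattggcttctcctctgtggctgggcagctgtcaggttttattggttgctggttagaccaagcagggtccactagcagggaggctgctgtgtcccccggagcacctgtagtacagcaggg

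*Myh11*, the smooth muscle myosin heavy chain (chromosome 16, 14194535 to 14291372, minus strand), is the motor that pulls on the actin filaments. It had 152, 53.8 and 72.7 CPM in the *fat-1* pools and 109, 72.8 and 48.3 CPM in the WT pools. Its highest sample was *fat-1* pool 1, and without that sample the sign of the difference turned. The log2 fold change was 0.27 (standard error 0.45), and −0.27 without *fat-1* pool 1. Unlike *Actg2*, *Myh11* did not keep a fixed proportion to *Acta2*. Its counts were 205%, 200% and 101% of the *Acta2* counts in the *fat-1* pools and 118%, 161% and 176% in the WT pools, so that *fat-1* pool 3, which was high in *Acta2*, was not high in *Myh11*.

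Calponin (*Cnn1*), transgelin (*Tagln*) and leiomodin (*Lmod1*) act on actin filaments, the first by holding back myosin, the last by starting new filaments. *Lmod1* (chromosome 1, 135324807 to 135368065, plus strand) had 11.3, 3.002 and 7.73 CPM in the *fat-1* pools and 14.8, 5.53 and 2.59 CPM in the WT pools. *Cnn1* (chromosome 9, 22099216 to 22109630, plus strand) followed the same order of samples, with 4.33, 1.19 and 3.02 CPM in *fat-1* and 5.15, 2.05 and 0.769 CPM in WT. Both were highest in WT pool 1 and lowest in WT pool 3, which lay 5.70-fold and 6.70-fold apart. Their log2 fold changes were −0.05 (standard error 0.71) and 0.10 (standard error 0.73), and the 95% intervals reached from 0.292-fold to 3.19-fold for *Lmod1* and from 0.314-fold to 3.66-fold for *Cnn1*.

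The row with the symbol *Tagln* (chromosome 9, 45929619 to 45936058, minus strand) had 5.68, 1.42 and 6.33 CPM in the *fat-1* pools and 6.10, 2.26 and 1.02 CPM in the WT pools. *Tagln* and *Snai2* were the 2 genes that were highest in *fat-1* pool 3. The log2 fold change of the row was 0.52 (standard error 0.80). *Tagln*, like *Oxtr*, is less certain than the other members, since its locus also holds the neighbouring genes *Sidt2* and *Pafah1b2* and a row without a symbol. The *Tagln* row made up between 0.287% and 1.699% of the locus. The row without a symbol made up between 91.0% and 92.3% in the *fat-1* pools and between 85.9% and 88.2% in the WT pools. How many of the reads in the row without a symbol came from *Tagln* is not known from these counts. The whole locus had 367 ± 21.02 CPM in *fat-1* and 355 ± 11.5 CPM in WT, with 0.05 as the log2 fold change (standard error 0.08), and this sum says little about *Tagln*. In this locus, the levels of the *Sidt2* and *Pafah1b2* rows did not overlap between the genotypes, as in 5.26% of all rows tested. Their log2 fold changes were −0.71 and −0.66, with adjusted *p*-values of 1.00 in edgeR's quasi-likelihood test. The share of the locus in the row without a symbol did not overlap either, and was higher in *fat-1* (exact permutation *p* = 0.1, two-sided). How often such shares do not overlap in other loci was not counted. Whether counts were placed differently among these rows was not tested. An annotated antisense gene shares 1241 exonic bases with *Tagln* and *Pcsk7* shares 108, so without strand their reads cannot be told apart.

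**Figure D2:**
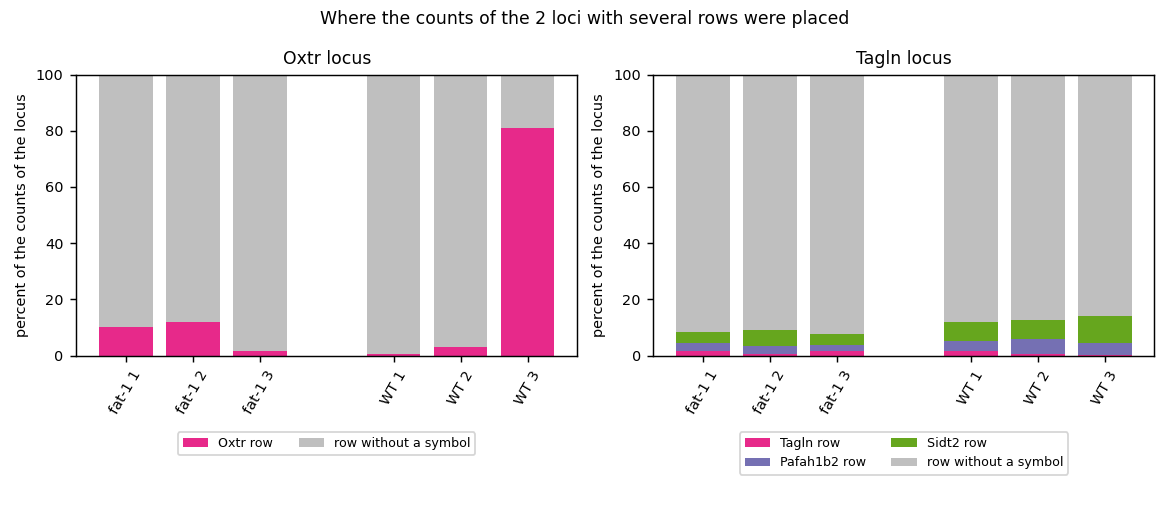
Percent of the counts of the *Oxtr* locus (left) and the *Tagln* locus (right) that each row of the table held in each sample. The *Oxtr* row held at most 12.0% of its locus in the other 5 samples against 80.9% in WT pool 3, and the *Tagln* row held at most 1.699% of its locus.

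*Mylk*, the myosin light chain kinase that starts contraction (chromosome 16, 34745210 to 35002420, plus strand), varied less than the filament genes. It had 12.6, 8.53 and 13.8 CPM in the *fat-1* pools and 18.2, 12.5 and 8.12 CPM in the WT pools, a range of 2.24-fold. The log2 fold change was −0.15 (standard error 0.33). It turned to 0.18 without WT pool 1, the highest pool, and to 0.03 without *fat-1* pool 2. The gene also gives rise to forms that many cell types use, and 2 annotated antisense genes share 548 and 224 of its exonic bases.

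*Oxtr*, the oxytocin receptor (chromosome 6, 112473683 to 112489943, minus strand), had 3.55, 1.13 and 3.26 CPM in the *fat-1* pools and 9.57, 3.04 and 0.866 CPM in the WT pools when both rows of its locus were added. WT pools 1 and 3 held the highest and the lowest value of all 6. The log2 fold change was −0.76 (standard error 0.85), and 0.44 without WT pool 1, so its sign rests on that sample. The row with the symbol differed from the sum, with 75, 29 and 10 counts in *fat-1* and 12, 22 and 144 counts in WT. Here WT pool 3 was the highest, and the row made up 80.9% of the locus in that pool and between 0.586% and 12.0% in the others. The share was 7.82% ± 5.59 in *fat-1* and 28.2% ± 45.6 in WT (exact permutation *p* = 0.9, two-sided), and the log2 fold change of the row was −0.65 (standard error 1.11), or 1.22 without WT pool 3. How many of the reads in the other row, which has no symbol, came from *Oxtr* is not known from these counts.

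*Trp63* encodes p63, the transcription factor that basal cells of stratified and glandular epithelia need (chromosome 16, 25683763 to 25892102, plus strand). It had 6.59, 1.61 and 5.09 CPM in the *fat-1* pools and 13.4, 6.65 and 1.99 CPM in the WT pools. WT pool 1 was the highest and *fat-1* pool 2 the lowest, and the genotypes overlapped. The means were 4.43 ± 2.55 CPM and 7.34 ± 5.73 CPM, which gave a log2 fold change of −0.73 with a standard error of 0.75. Without WT pool 1 it was 0.04. *Snai2*, the transcription factor Slug of basal cells and fibroblasts (chromosome 16, 14705852 to 14709385, plus strand), stood apart from the other 9. Its CPM were 2.33, 3.13 and 3.75 in *fat-1* and 3.46, 3.41 and 2.69 in WT, and *fat-1* pool 1, among the highest for most members, was its lowest. The log2 fold change was −0.05 (standard error 0.22).

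**Figure D3:**
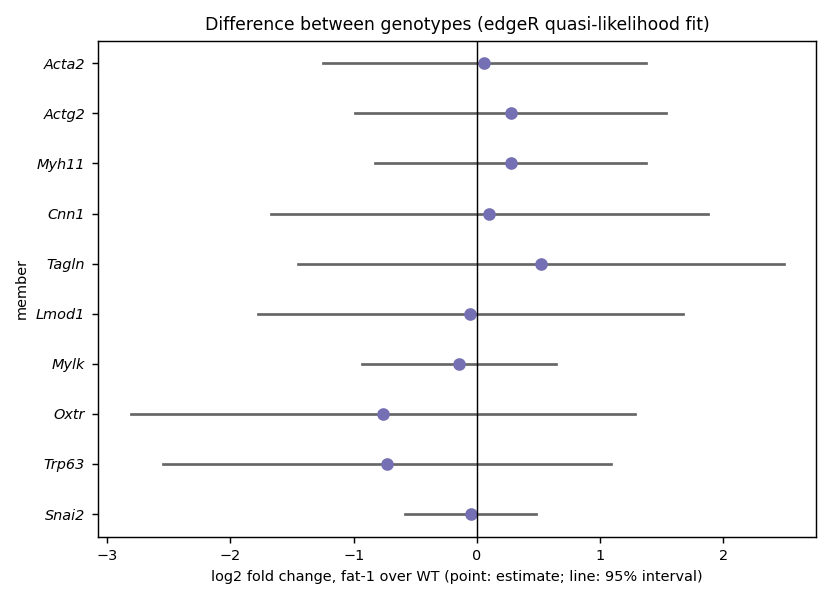
Log2 fold change of *fat-1* over WT for each of the 10 genes from edgeR's quasi-likelihood fit (points) with its 95% interval (lines), where 0 is no difference. All 10 intervals cross 0, and estimates range from −0.76 (*Oxtr*) to 0.52 (*Tagln*).

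Of the 10 genes, 5 had a positive and 5 a negative log2 fold change, beside 50.6% and 49.4% of all locus sums and 51.2% and 48.8% of all rows tested. The median was 0.004, and 0.002 over all locus sums. Every adjusted *p*-value was 1.00 in the quasi-likelihood test with Benjamini–Hochberg adjustment. Except for *Oxtr* and *Tagln*, fitting the row with the symbol in place of the locus moved no log2 fold change by more than 0.005. The intervals are wide. Those of 6 genes hold a 2-fold difference in both directions and those of *Myh11* and *Actg2* a 2-fold higher level in *fat-1*, while those of *Mylk* and *Snai2* hold neither.

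Levels of different genes were compared as CPM per kilobase of annotated exon. *Acta2* came first, with 25.7 ± 12.4 CPM per kilobase over the 6 samples, followed by *Myh11* with 11.2 ± 5.17 and *Actg2* with 2.87 ± 1.33, and each of these exceeded the next gene in all 6 samples. *Tagln* (1.91 ± 1.25), *Lmod1* (1.90 ± 1.22) and *Snai2* (1.55 ± 0.262) did not separate, since *Tagln* exceeded *Lmod1* in 1 sample and *Lmod1* exceeded *Snai2* in 3 samples. *Snai2* was above *Mylk* (1.09 ± 0.329) in all 6 samples. *Mylk*, *Cnn1* (1.01 ± 0.636), *Oxtr* (0.745 ± 0.658) and *Trp63* (0.701 ± 0.510) overlapped, with *Mylk* above *Cnn1* in 4 samples, *Cnn1* above *Oxtr* in 5 and *Oxtr* above *Trp63* in 3. These lengths merge all annotated exons, so a gene with unused exons is placed too low. The places of *Tagln* and *Oxtr* are uncertain. *Tagln* is placed by its row, while its whole locus, which holds other genes, had 182 CPM per kilobase of *Tagln* exon. *Oxtr* is placed by a sum that mostly came from a row without a symbol, and its own row alone had 0.0485 CPM per kilobase.

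The levels of cell type markers differed between pools of the same genotype. The basal keratins *Krt5* and *Krt14* together had 299, 56.0 and 118 CPM in the *fat-1* pools and 192, 103 and 56.2 CPM in the WT pools. A list of 6 luminal markers had 2753, 636 and 1103 CPM in *fat-1* and 2109, 1240 and 667 CPM in WT. As for 9 of the 10 contractile genes, *fat-1* pool 2 and WT pool 3 were the lowest in both, so this order was shared by basal and luminal markers. A list of 5 immune markers ran the other way, with 657, 1504 and 1148 CPM in *fat-1* and 681, 806 and 1494 CPM in WT. Fibroblast markers were abundant, with 6 of them summing to 1364, 2811 and 3965 CPM in *fat-1* and 2735, 3882 and 3253 CPM in WT. A list of 8 pericyte and vascular smooth muscle markers ran between 93.5 and 143 CPM in *fat-1* and between 93.3 and 151 CPM in WT. Within that list, *Rgs5*, a defining pericyte gene, was highest in WT pool 2 with 28.0 CPM and lowest in *fat-1* pool 1 with 13.1 CPM. *Notch3*, which luminal cells also express, was highest in *fat-1* pool 1 with 79.4 CPM. One marker of this list was at 0 in some pools. Skeletal muscle RNA was scarce, with 8 markers summing to between 3.404 and 4.93 CPM and *Myh1* at 0 in all 3 *fat-1* pools. The part of these cell types in the levels of the contractile genes was not tested.

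**Figure D4:**
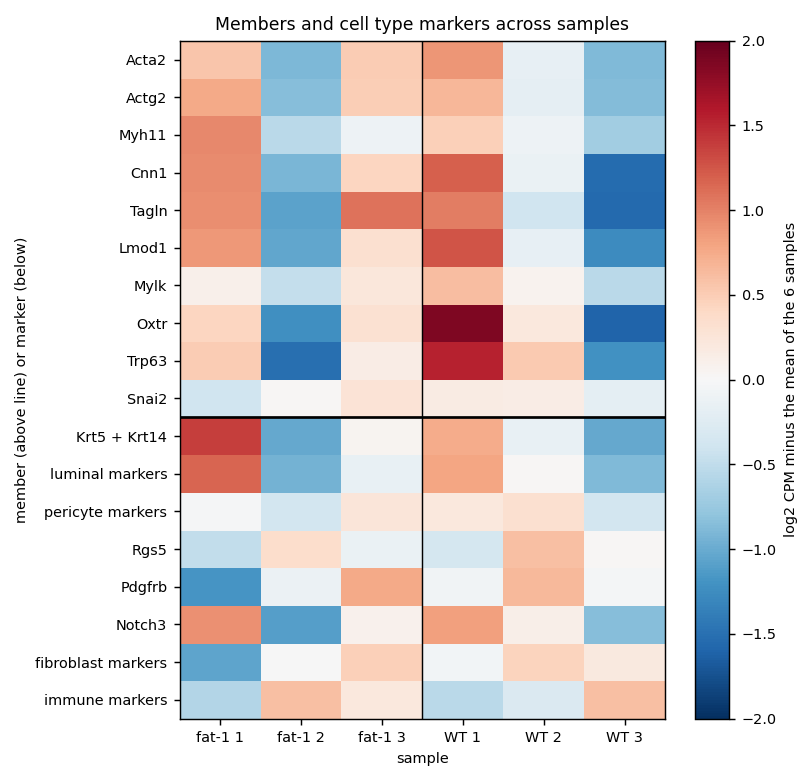
Log2 CPM minus the mean of the 6 samples (red higher, blue lower) for the 10 genes above the line and for cell type markers below it, where lists are summed CPM. *Krt5* plus *Krt14* ranges from −1.03 in *fat-1* pool 2 to 1.39 in *fat-1* pool 1, and *Snai2*, *Rgs5* and *Pdgfrb* do not share the pattern of the keratins.

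Across the 6 samples, 30 relations were computed on log2(CPM + 1), each member against the basal keratins, the pericyte list and the immune list. After Benjamini–Hochberg adjustment 0 of them passed 0.05, and 11 had an exact permutation *p* of 0.05 or less by Pearson's r before it. Locus sums were used for all 10 genes, so that *Tagln* stands for its whole locus here and *Oxtr* mostly for a row without a symbol. The *Oxtr* row alone had the opposite signs. Its r was −0.24 against the keratins, −0.68 against the pericyte list and 0.32 against the immune list (exact permutation *p* = 0.679, 0.107 and 0.558). *Myh11* came closest to the keratins, with Pearson's r of 0.990 (exact permutation *p* = 0.00556, adjusted 0.0833) and Spearman's rho of 0.886 (exact permutation *p* = 0.0333, adjusted 0.111). With the 2 pools most distant from the median keratin level left out, its r was 0.991. *Actg2* had r = 0.943 (exact permutation *p* = 0.00694, adjusted 0.0833) and rho = 0.943 (exact permutation *p* = 0.0167, adjusted 0.111), with r = 0.945 after the same step. *Snai2* had r = −0.20 (exact permutation *p* = 0.699, adjusted 0.723) and rho = 0.03 (exact permutation *p* = 1.00, adjusted 1.00), and its r became 0.783 after it. Against the keratins, r was positive for 9 of the 10 genes, and against the immune list it was negative for 9. The share of all loci with the same sign, or with an unadjusted *p* of 0.05 or less, was not computed, here or for the pericyte list. These counts can therefore not be read as a trait of the members.

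Against the pericyte list all 10 correlations of locus sums were positive, with r between 0.264 and 0.848, but for most genes the sign was not kept. The summed list weighs its abundant markers most. In *fat-1* pool 1, *Notch3* made up 79.4 of its 119 CPM, while *Rgs5* was at its lowest, 13.1 CPM. With the 2 most distant pools left out, r was negative for 7 genes. For *Acta2*, r was 0.754 (exact permutation *p* = 0.133, adjusted 0.190) and rho 0.429 (exact permutation *p* = 0.419, adjusted 0.466), and r became −0.47. For *Myh11*, r was 0.487 (exact permutation *p* = 0.322, adjusted 0.358) and rho 0.486 (exact permutation *p* = 0.356, adjusted 0.427), and r became −0.93. The r values without these pools rest on few samples and were not tested, and neither relation had passed adjustment with all pools.

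Relative to the basal keratins the genotypes overlapped for all 10 genes, where 1.01% of all locus sums did not overlap. Dividing by the summed *Krt5* and *Krt14* counts made the spread over the 6 samples smaller for 8 genes and larger for *Mylk* and *Snai2*. *Acta2* had 0.485, 0.439 and 0.488 counts per keratin count in the WT pools, which are close together. In the *fat-1* pools it had 0.248, 0.482 and 0.606, and the low value is that of *fat-1* pool 1, the sample richest in keratin. That sample had the lowest ratio of all 6 for 8 of the 10 genes. The log2 ratio of *Acta2* was −1.26 ± 0.669 in *fat-1* and −1.09 ± 0.0857 in WT (exact permutation *p* = 0.8, two-sided).

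**Figure D5:**
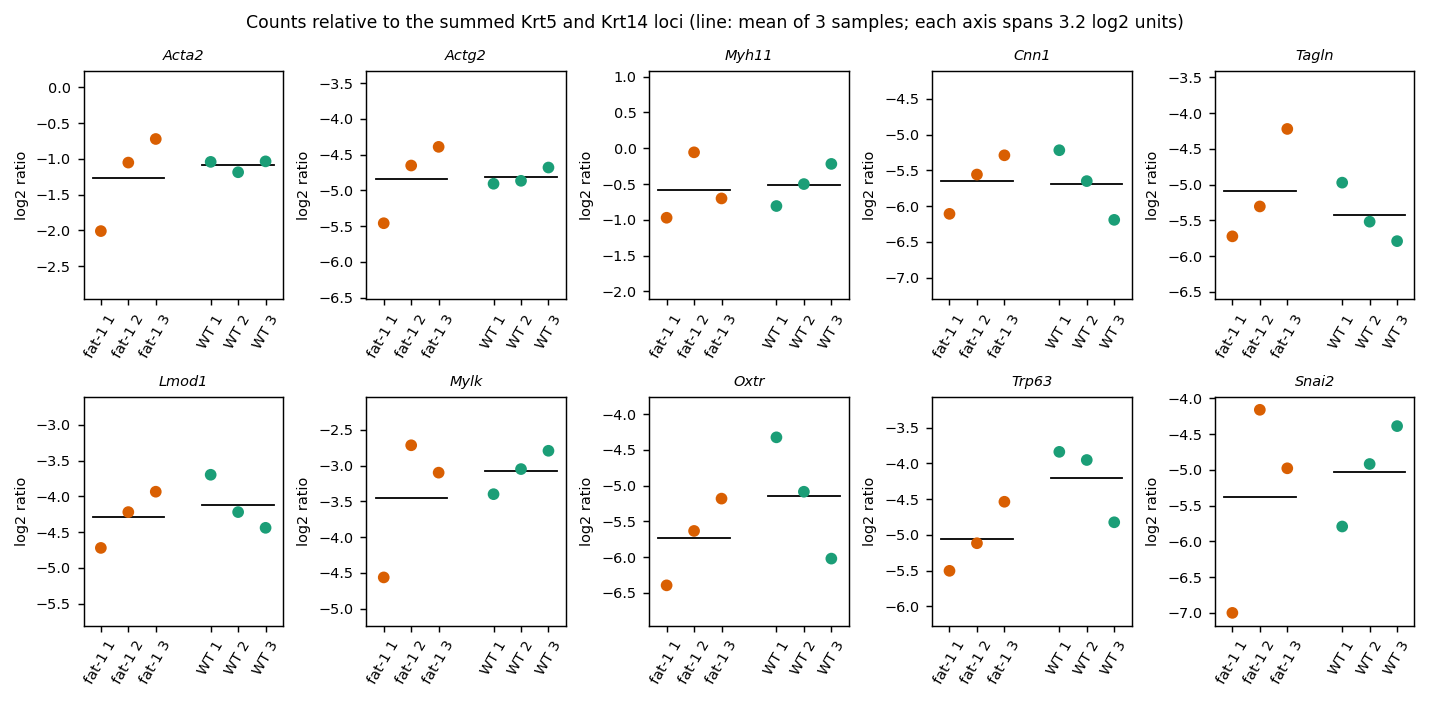
Log2 of the counts of each of the 10 genes divided by the summed *Krt5* and *Krt14* counts, in the *fat-1* (orange) and WT (green) samples, with a line at each mean. The WT pools lie close together for *Acta2*, *fat-1* pool 1 is the lowest point in 8 panels, and the genotypes overlap in all.

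The widest gap in this ratio was that of *Trp63*, which had 0.0221, 0.0288 and 0.0431 counts per keratin count in the *fat-1* pools and 0.0699, 0.0646 and 0.0353 in the WT pools. WT pool 3 fell among the *fat-1* pools. The log2 ratio was −5.05 ± 0.486 in *fat-1* and −4.21 ± 0.538 in WT, a difference of −0.85 (exact permutation *p* = 0.2, two-sided). With the keratin level as a covariate in edgeR's quasi-likelihood fit, *Trp63* came to a log2 fold change of −0.88 (standard error 0.34, unadjusted *p* = 0.0374, adjusted *p* = 1.00). Before adjustment it was 1 of 10 genes at or under 0.05, where 4.16% of all locus sums were in that fit. In the fit of rows with the same covariate, in which 4.27% of all rows were, its unadjusted *p* was 0.0782 by edgeR and no member passed. With the covariate, the other 9 had unadjusted *p*-values of 0.1725 or more by edgeR, as locus sums or, for *Tagln*, as its row.

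The wider contractile pathway was represented by 46 genes in 45 loci, listed by role. None passed the adjusted threshold in edgeR's quasi-likelihood test, and the median log2 fold change was −0.003. At the unadjusted threshold 0 were higher and 2 lower in *fat-1*, beside 115 higher and 159 lower of all 24061 locus sums, together 1.14%. The 2 lower genes were low in CPM. *Myocd*, the myocardin coactivator of serum response factor, had 0.251, 0.210 and 0.250 CPM in the *fat-1* pools and 0.351, 0.336 and 0.375 CPM in the WT pools. *Plcb1*, a phospholipase downstream of receptors such as *Oxtr*, had 1.84, 2.10 and 2.08 CPM in *fat-1* and 2.38, 2.85 and 2.93 CPM in WT. For these 2 genes the genotypes did not overlap, as for 4.15% of all locus sums. The log2 fold changes were −0.58 (standard error 0.21, unadjusted *p* = 0.0304) and −0.44 (standard error 0.16, unadjusted *p* = 0.0306), with adjusted *p*-values of 1.00 in the quasi-likelihood test of edgeR.

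By role, none of the 3 light chain loci, 8 thin filament loci or 8 dense body and cytoskeleton loci passed the unadjusted threshold, and 1 of 13 calcium and receptor signaling loci and 1 of 6 transcription loci did. The abundant genes of these groups are used by many cell types. The filament crosslinker *Flna* had between 703 and 1228 CPM, the tropomyosin *Tpm1* between 445 and 798 CPM, and *Srf*, serum response factor itself, between 48.8 and 63.4 CPM. *Flna* and *Tpm1* were lowest in WT pool 3 and *fat-1* pool 2 and highest in *fat-1* pool 1. Not all abundant genes shared this order. The thin filament gene *Cald1* had 483, 552.5 and 621 CPM in *fat-1* and 564, 672 and 462 CPM in WT.

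The 5 loci whose levels over the 6 samples were most like the mean standardized level of the members, among 9396 other loci with a symbol and a mean of at least 10 CPM, were *Camta1* with *Vamp3*, *Arc*, *Rabl6*, *Cdc16* and *Plekha5*, with Pearson's r between 0.994 and 0.996. These are the highest of 9396 values, and no test was made of them. *Arc* ran from 11.1 CPM in WT pool 3 to 24.2 CPM in WT pool 1, while the locus of *Camta1* and *Vamp3* ran from 88.4 to 99.9 CPM.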

How the data were processed

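The authors aligned paired reads with HISAT2 (genome GRCm38) and used StringTie to build and quantify transcripts. The deposited table gives estimated counts for each row, in whole numbers and not normalized. The conversion to counts, the annotation and the strand setting are not given in the sources used here. Samples were mapped by title, and 0 value columns were left without a sample. Whether samples of a genotype came from separate cages or days is not stated. The *p*-values of the genotype comparison set its difference against the spread between these pools. A difference of cage or day that went with genotype could not be told apart from it.

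Rows and locus sums were tested separately by quasi-likelihood in edgeR 4.0.16 (newer fit) under R 4.3.3, fitting genotype alone after filterByExpr and TMM normalization and Benjamini–Hochberg adjustment over all rows or loci. The standard error is the log2 fold change over the square root of F. Alternatives included DESeq2 1.42.0. Exact permutation tests were two-sided. The tests were checked on simulated counts with the same spread for every gene, which was not taken from these pools. The check does not show how the tests perform for genes that vary as the members do. The fit with the keratin covariate did not have to pass it. Marker lists use the locus sum, or the row with the symbol where the locus holds another named gene. The *Krt14* locus also holds *Krt16*. Positions and exon lengths are from GENCODE M21 (GRCm38), and promoters from RefSeq (GRCm38.p6).

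The members and lists were chosen with earlier results of these data known. All members are named, and of each other list at most the 2 genes with the highest mean CPM and the 2 with the smallest unadjusted *p*-value. *Myh1*, *Ngfr*, *Sidt2* and *Pafah1b2* were named after their values were seen. *Mkl1* and *Mkl2* of the list appear in the table as *Mrtfa* and *Mrtfb*. The result of 1 group of the pathway list is not reported here.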

Additional observations from a re-analysis of the deposited data

How the results depend on the processing

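No member passed the adjusted threshold under any of the alternatives run. Over all rows, 0 passed by the quasi-likelihood test, 32 by edgeR's exact test, 93 by DESeq2, and 0 to 2 with a sample left out. Over all locus sums the counts were 0, 6, 8, and 0 to 1. With the basal keratin covariate, 1 member (*Trp63*) passed the unadjusted threshold as a locus sum (4.16% of all locus sums did), against 0 as rows and 0 without the covariate, and the log2 fold changes of *Acta2* and *Cnn1* turned to −0.063 and −0.043.

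With each sample left out in turn, the log2 fold change ran from −1.17 to 0.036 for *Trp63*, −0.26 to 0.66 for *Acta2*, −0.27 to 0.62 for *Myh11*, −0.33 to 1.01 for *Cnn1*, −0.38 to 0.18 for *Mylk*, −1.25 to 0.44 for the *Oxtr* locus, −1.61 to 1.22 for the *Oxtr* row, −0.22 to 0.12 for *Snai2*, −0.50 to 0.85 for *Lmod1* and −0.033 to 0.77 for *Actg2*. The sign turned without *fat-1* pool 1 for *Acta2*, *Myh11*, *Cnn1*, *Snai2* and *Actg2*, without *fat-1* pool 2 for *Mylk* and *Lmod1*, without *fat-1* pool 3 for *Acta2*, without WT pool 1 for *Trp63*, *Mylk*, the *Oxtr* locus, *Snai2* and *Lmod1*, without WT pool 2 for *Acta2* and *Cnn1*, and without WT pool 3 for *Acta2*, *Cnn1*, *Actg2* and the *Oxtr* row. That of the *Tagln* row, which kept its sign, ran from 0.10 without WT pool 3 to 1.45 without WT pool 1, that of *Myocd* from −0.62 to −0.50 and that of *Plcb1* from −0.52 to −0.37. The number of members whose ratio to the basal keratins did not overlap between genotypes was 0, and 0 to 2 with a sample left out: *Trp63* and *Oxtr* without WT pool 3, *Trp63* without *fat-1* pool 3 and *Actg2* without *fat-1* pool 1. Of all locus sums, 2.07%, 2.04% and 2.59% did not overlap without these pools. Of the 30 relations, 1 passed on total-count CPM (*Myh11* with the keratins, adjusted *p* = 0.0417) and 0 otherwise. They were not repeated with 1 sample left out. The causes were not tested.

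The labels number the samples of both genotypes alike, and whether the numbers pair them is not stated. Deviations of same-numbered samples from their genotype mean correlated at 0.799, −0.16 and 0.132, and *fat-1* pool 2 was closest to WT pool 3 (0.789). With the replicate number as a block, 0 members passed, as without it, and the log2 fold change of *Lmod1* turned to 0.071.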

Other observations

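Of 8 basal markers outside the contractile set, 7 had their lowest values in *fat-1* pool 2 and WT pool 3, as had all 6 luminal markers. The exception was *Ngfr*, a receptor of neurotrophins, with 0.858, 1.482 and 1.659 CPM in *fat-1* and 1.117, 1.744 and 1.318 CPM in WT. *Itgb4*, the integrin of hemidesmosomes, had 146, 32.4 and 64.2 CPM in the *fat-1* pools and 105, 56.6 and 34.4 CPM in the WT pools, with *fat-1* pool 1 highest. *Mme*, the surface peptidase CD10 of myoepithelial cells, had 10.7, 6.72 and 14.2 CPM in *fat-1* and 20.4, 16.5 and 7.92 CPM in WT, and *fat-1* pool 1 was here below *fat-1* pool 3. Of 8 basal markers beyond the members 0 passed the unadjusted threshold in edgeR's quasi-likelihood test, and their median log2 fold change was 0.26, with 5 positive and 3 negative.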
